A study of Saccharomyces cerevisiae with 26 samples.

Results

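The 6 genes described here, TIP1, TIR1, TIR2, TIR4, DAN1 and SRL1, encode mannoproteins of the yeast cell wall and were taken as every probe set that the array's annotation assigns to 1 of these names. They were covered by 8 probe sets of 9335, since SRL1 had 3 and each other gene had 1, and the array named 5656 genes in all. Their systematic names are YBR067C (TIP1), YER011W (TIR1), YOR010C (TIR2), YOR009W (TIR4), YJR150C (DAN1) and YOR247W (SRL1). All 8 probe sets passed the filter on low signal. Values are log2 signals after quantile normalization between arrays, differences are differences of log2 group means ± the standard error of the model, and n = 2 arrays in every group.

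Cell wall mannoproteins are secreted proteins that carry many mannose chains and are mostly tethered to wall glucan through the remnant of a glycosylphosphatidylinositol (GPI) anchor. TIP1, TIR1 and TIR2 belong to a serine- and alanine-rich family first known for transcripts that rise when growing yeast is chilled. TIR4 and DAN1 are known from cells grown without oxygen, in which DAN and TIR proteins take the place of the aerobic mannoproteins CWP1 and CWP2, under the activator UPC2 and the repressors ROX1 and MOT3. SRL1 encodes a mannoprotein first found as a suppressor of the lethality of losing the checkpoint kinase gene RAD53. TIR2 and TIR4 are adjacent genes, with 0 annotated genes between them.

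The study measured total RNA of budding yeast (Saccharomyces cerevisiae, strain not named in the labels) on 26 oligonucleotide arrays in 13 groups, before and after cells were moved into sporulation medium and then treated with benomyl, a drug that depolymerizes microtubules, or with cold. All sporulating cells had been grown in glucose medium (YPD), then overnight at 30 °C in acetate medium (YPA), then placed in dilute potassium acetate. The treated cells and their controls were filtered after 4 h of sporulation and resuspended, and RNA was taken 1 h or 4 h later. Sets of arrays are defined by an instrument file with a scan day, present for the first set and absent for the second. In the second set of 10 arrays, the cold groups were resuspended in chilled medium with dimethyl sulfoxide (DMSO, a solvent, its concentration there not given) and kept at 10 °C. Their controls were filtered into sporulation medium at a temperature the labels do not give and with no DMSO named, and a further group was sampled at 4 h of sporulation. In the first set of 16 arrays, benomyl from a DMSO stock was compared with 0.4% DMSO at 1 h and 4 h, next to cells filtered with no drug or solvent, cells at 4 h of sporulation, and cells in YPA and YPD. Cold and DMSO were therefore added together, and a cold difference and a DMSO difference cannot be told apart in the second set alone. With no scan days in that set, whether the cold arrays and their controls were run together is unknown.

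The labels do not say whether the 2 arrays of a group came from separate cultures, so p-values measure the spread between arrays, which may be technical. The model estimated that spread over all 13 groups, not from the groups compared alone. Both arrays correlated at 0.984 or more in 11 groups. The pairs for benomyl at 1 h (r = 0.942) and for the filtered control of the second set at 1 h (r = 0.963) stood apart. In comparisons that use those pairs, the error of the model can understate the spread. Sporulation was checked with 7 meiotic genes, of which 4 (IME1, IME2, DMC1 and HOP1) were higher on each of the 22 sporulation arrays than on either YPD array. NDT80, SPS1 and SPS2 were not, with lowest sporulation arrays (5.35, 4.53 and 5.96) below the highest YPD arrays (5.74, 4.85 and 6.01). At 4 h their means were 5.96, 5.89 and 7.46 at 10 °C and 8.03, 9.85 and 11.19 in the filtered control. Cold and control cells thus differed in these meiotic transcripts at 4 h, and what that adds to the cold differences was not tested. An array of pooled cells cannot separate fewer cells with a transcript from less transcript per cell.

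TIP1 and the brightest probe set of SRL1 reached their highest level of any group at 10 °C for 4 h. SRL1 rose 2.28-fold after 1 h of cold and 6.59-fold after 4 h relative to the filtered control. TIP1 and TIR4 rose 1.89-fold and 1.62-fold after 4 h. TIR1, TIR2 and DAN1 were not called different from the control at either time. The plot of levels by array shows these groups at the left of each panel.

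**Figure D1:**
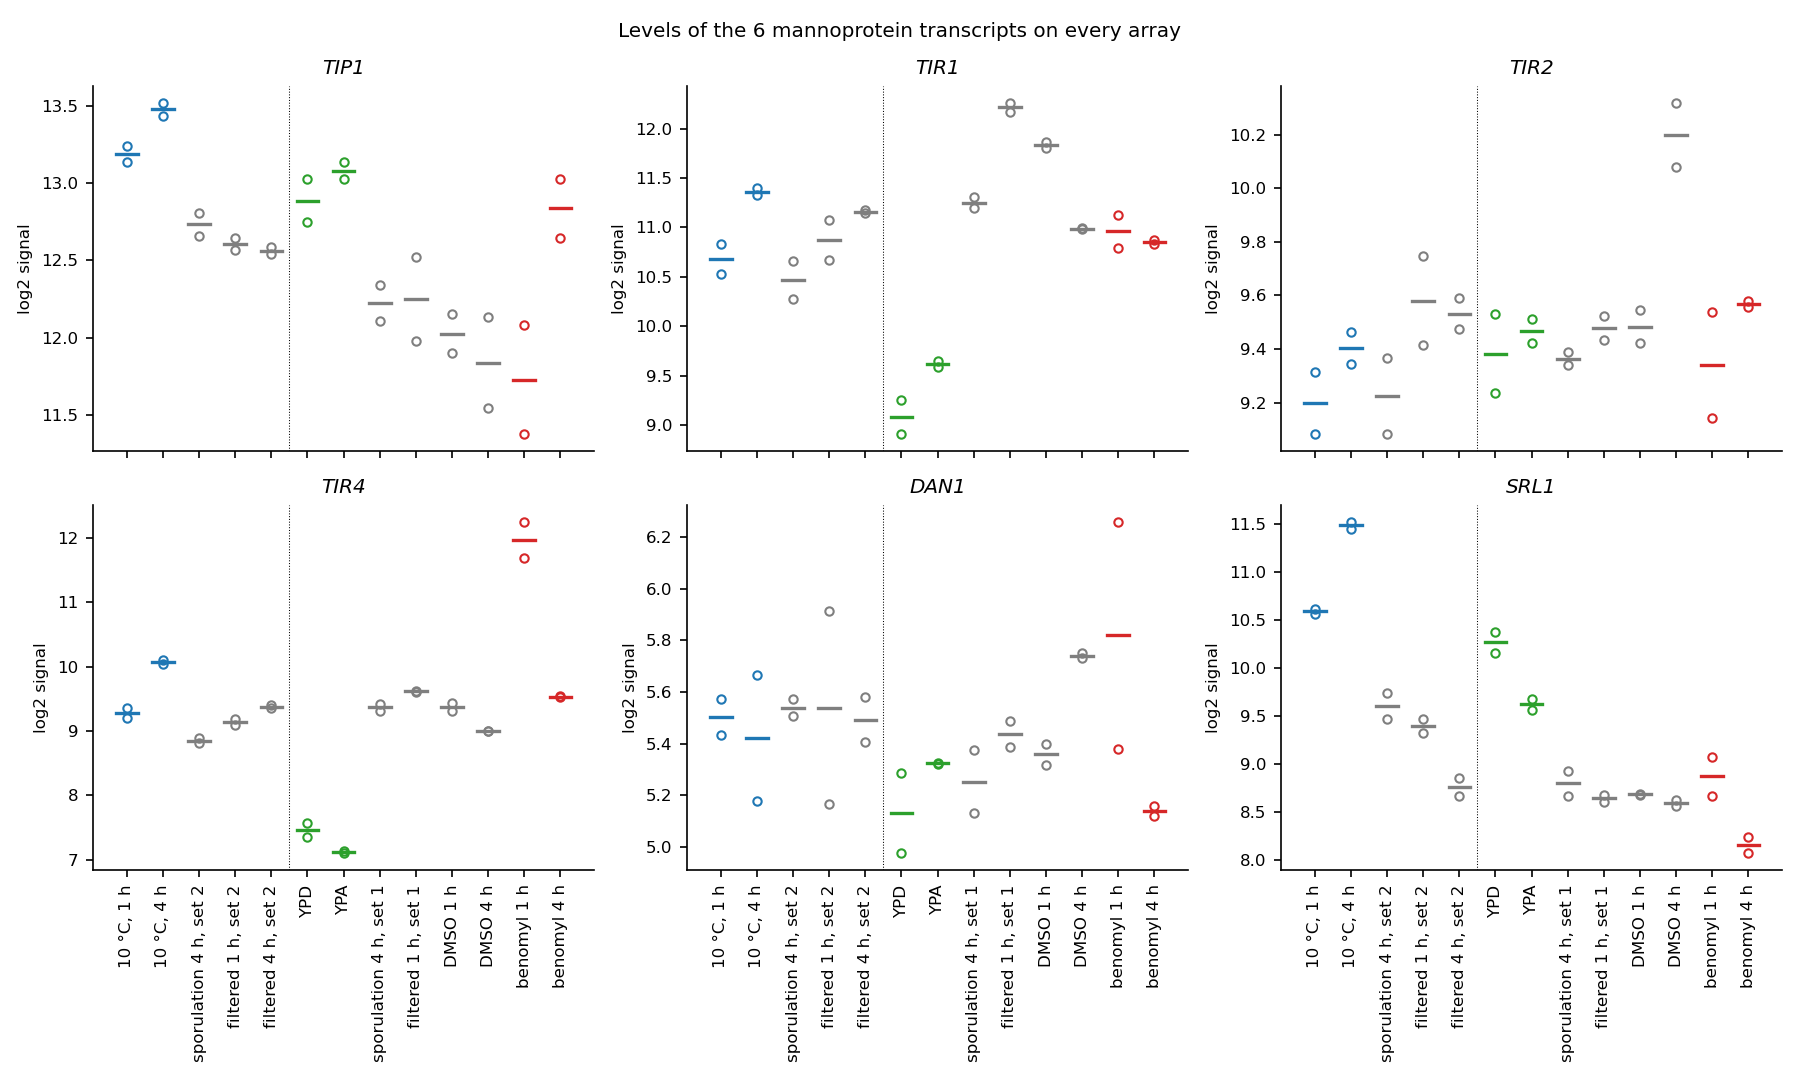
Log2 signal of each transcript (vertical axis, own scale per panel) in the 13 groups (horizontal axis), with open circles for the 2 arrays of a group and a bar for their mean. Blue marks the 10 °C groups, red benomyl, green growth media and grey the other sporulation groups, and the dotted line separates the second set (left) from the first. The brightest SRL1 probe set and TIP1 are highest at 10 °C for 4 h (means 11.48 and 13.48), TIR4 is highest under benomyl at 1 h (11.98), and DAN1 stays between 4.98 and 6.26 on all arrays.

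SRL1 gave 10.56 and 10.61 on the arrays of cells held at 10 °C for 1 h, against 9.47 and 9.32 in the control. After 4 h the cold arrays gave 11.52 and 11.44 and the control arrays 8.66 and 8.86. The cold arrays lay above the control arrays at both times with no overlap. The difference was 1.19 ± 0.14 at 1 h (adjusted p = 1.11e-05) and 2.72 ± 0.14 at 4 h (adjusted p = 2.37e-10). At 4 h it was the 7th largest rise among 7876 tested probe sets. The gap widened from both sides: between 1 h and 4 h SRL1 rose by 0.90 ± 0.14 in the cold (adjusted p = 0.00105) and fell by 0.63 ± 0.14 in the control (adjusted p = 0.0074). The test of the change in the cold difference from 1 h to 4 h gave 1.53 ± 0.20 (adjusted p = 4.62e-05). The fall in the control lost its call with the values as deposited (-0.42, adjusted p = 0.146) and without replicate 1 of the control at 1 h (adjusted p = 0.0624) or at 4 h (adjusted p = 0.106), while both cold differences kept their calls under every alternative run for the brightest SRL1 probe set. Against the DMSO arrays of the first set in place of the filtered control, the SRL1 difference was 1.90 at 1 h and 2.89 at 4 h. That comparison, here and for the genes below, crosses the sets of arrays.

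SRL1 had 3 probe sets, and the values above are those of the brightest. The names of the other 2 carry a g or an i before "at". The g marks probes that may be shared, so the 3 need not be independent. The cold difference at 4 h was 2.57 ± 0.14 for the g probe set and 2.90 ± 0.34 for the i probe set, both called. At 1 h they differed by 1.01 ± 0.14 and 1.58 ± 0.34, again both called. The i probe set was dim in the controls, and its filtered arrays at 1 h lay far apart, at 4.25 and 5.79. Its difference at 1 h was no longer called without replicate 1 of that control (0.81, adjusted p = 0.064) or with only the compared groups in the model (adjusted p = 0.086).

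**Figure D2:**
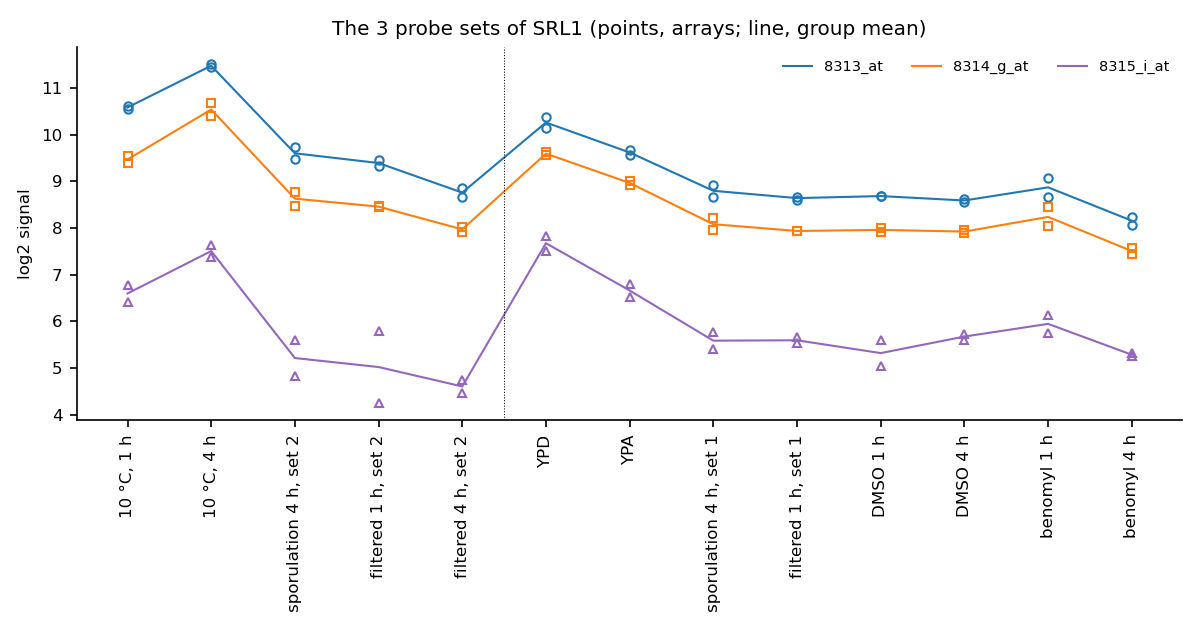
Log2 signal of the 3 SRL1 probe sets (vertical axis) in the 13 groups (horizontal axis). Points are single arrays, a line joins the 2-array means of 1 probe set, and the dotted line separates the second set from the first. At 10 °C for 4 h the means are 11.48, 10.54 and 7.51, and in the filtered control at 4 h they are 8.76, 7.97 and 4.60.

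TIP1, for temperature shock inducible protein, gave 13.14 and 13.24 at 10 °C for 1 h and 12.65 and 12.57 in the control. After 4 h the cold arrays gave 13.52 and 13.43 and the control arrays 12.54 and 12.59. Both pairs of groups were separate. The difference of 0.58 ± 0.22 at 1 h missed the threshold (adjusted p = 0.0677), and that of 0.92 ± 0.22 at 4 h passed it (adjusted p = 0.00288). TIP1 was among the brightest probe sets, between 9th and 269th on each array, where quantile normalization gives different arrays the same value. The size of its change depended on that step. With values as deposited the difference was 0.88 at 1 h (adjusted p = 0.0066) and 1.28 at 4 h. With median centring it was 0.91 (adjusted p = 0.00606) and 1.40. A change of control is a separate matter: against the DMSO arrays of the first set, quantile normalized, the difference was 1.16 and 1.64. The deposited TIP1 signals were 13.43 and 13.48 in the cold and 12.56 and 12.59 in the control at 1 h, then 13.90 and 13.89 in the cold and 12.59 and 12.64 in the control at 4 h.

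TIR4, a mannoprotein gene needed for growth without oxygen, was not called at 1 h of cold, with arrays at 9.36 and 9.21 against 9.18 and 9.10 in the control (0.15 ± 0.14, adjusted p = 0.495). After 4 h the cold arrays gave 10.10 and 10.05 and the control arrays 9.40 and 9.36. The groups did not overlap at 4 h, and the difference was 0.70 ± 0.14 (adjusted p = 0.00066). Against the DMSO arrays it was 1.07. The rise in the cold from 1 h to 4 h was 0.79 ± 0.14 (adjusted p = 0.00229). The test of whether the cold difference itself changed between the times did not pass (0.55 ± 0.20, adjusted p = 0.0996).

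TIR1, also needed for growth without oxygen, was at 10.83 and 10.53 at 10 °C for 1 h and 11.07 and 10.67 in the control, and these overlapped. At 4 h it was at 11.40 and 11.33 against 11.14 and 11.18. The differences were -0.19 ± 0.16 (adjusted p = 0.432) and 0.20 ± 0.16 (adjusted p = 0.347). Within the cold groups TIR1 rose from 1 h to 4 h by 0.68 ± 0.16 (adjusted p = 0.0163), a call that ended without 1 of 3 arrays (replicate 2 at 1 h, and either replicate at 4 h, adjusted p from 0.0679 to 0.199). Against the DMSO arrays of the first set the TIR1 difference was -1.15 at 1 h (adjusted p = 1.92e-05) and 0.37 at 4 h (adjusted p = 0.0485). Control and set change together in that comparison and cannot be told apart. In filtered cells at 1 h, with neither cold nor DMSO, TIR1 had a mean of 10.87 in the second set and 12.22 in the first.

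TIR2 differed by -0.38 ± 0.16 at 1 h of cold (adjusted p = 0.0895) and by -0.13 ± 0.16 at 4 h (adjusted p = 0.557). Against the DMSO arrays of the first set, TIR2 differed by -0.28 at 1 h (adjusted p = 0.161). At 4 h that difference was called, at -0.80 (adjusted p = 0.000233), where the DMSO cells had the highest TIR2 mean of any group (10.20). Its cold arrays, at 9.32 and 9.08 after 1 h, had the lowest mean of the 13 groups and overlapped the next. Without replicate 2 of the control, the 1 h difference was called (-0.55, adjusted p = 0.0363). DAN1, the delayed anaerobic gene, differed by -0.04 ± 0.24 and -0.07 ± 0.24, with cold and control arrays overlapping at both times. DAN1 was dim throughout: on the median array 75.9% of probe sets were brighter, so a small change would be hard to see.

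Over the 6 genes, 1 was called at 1 h of cold, where 20.1% of all tested probe sets were called, and 3 at 4 h, where 36.1% were. All 4 of these calls were rises, beside 11.7% and 19.4% of all probe sets called higher. The change in the cold difference between the times was called for 1 of the 6, SRL1, and for 7.83% of all. Arrays of the cold and control groups did not overlap for 4 of the 6 at 1 h (54.8% of all probe sets) and 5 of the 6 at 4 h (76.3%). The median difference of the 6 was 0.06 at 1 h and 0.45 at 4 h, beside -0.03 and 0.03 over all tested probe sets. From 1 h to 4 h in the cold 3 of the 6 rose, SRL1, TIR1 and TIR4, in a comparison with 5.17% of all probe sets called and 2.43% called higher. From 1 h to 4 h in the filtered control only SRL1 was called among the 6, with 8.1% called over all.

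Measured from the cells at 4 h of sporulation, just before chilling, to 4 h at 10 °C, 4 of the 6 rose (30.2% of probe sets were called, higher and lower together). SRL1 went from 9.47 and 9.74 to the 11.52 and 11.44 given above, a rise of 1.88 ± 0.14 (adjusted p = 5.43e-08). TIR4 went from 8.89 and 8.82 to 10.10 and 10.05 (1.22 ± 0.14, adjusted p = 2.82e-06). TIR1, which had not differed from the filtered control, went from 10.66 and 10.28 to 11.40 and 11.33 (0.89 ± 0.16, adjusted p = 0.000298). TIP1 rose by 0.74 ± 0.22 (adjusted p = 0.0144), a call that ended without either cold array or without replicate 2 of the earlier group. This comparison spans filtration and 4 h of further sporulation as well as cold. Filtration and the first hour after it, in the second set, called 0 of the 6 with limma (2 had an unadjusted p under 0.05, and 2.37% of all probe sets were called). Without replicate 2 of the filtered control, TIR1 was called there (0.60, adjusted p = 0.0491).

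Under benomyl at 1 h TIR4 had the largest difference of the 6, and SRL1 was not called. TIR4 rose 6.07-fold after 1 h of benomyl relative to DMSO, and TIR1 fell 1.83-fold. After 4 h TIP1 and TIR4 were higher than in DMSO (2.00-fold and 1.44-fold) and TIR2 and SRL1 lower (1.55-fold and 1.35-fold). The plot of differences sets the cold and benomyl comparisons side by side.

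**Figure D3:**
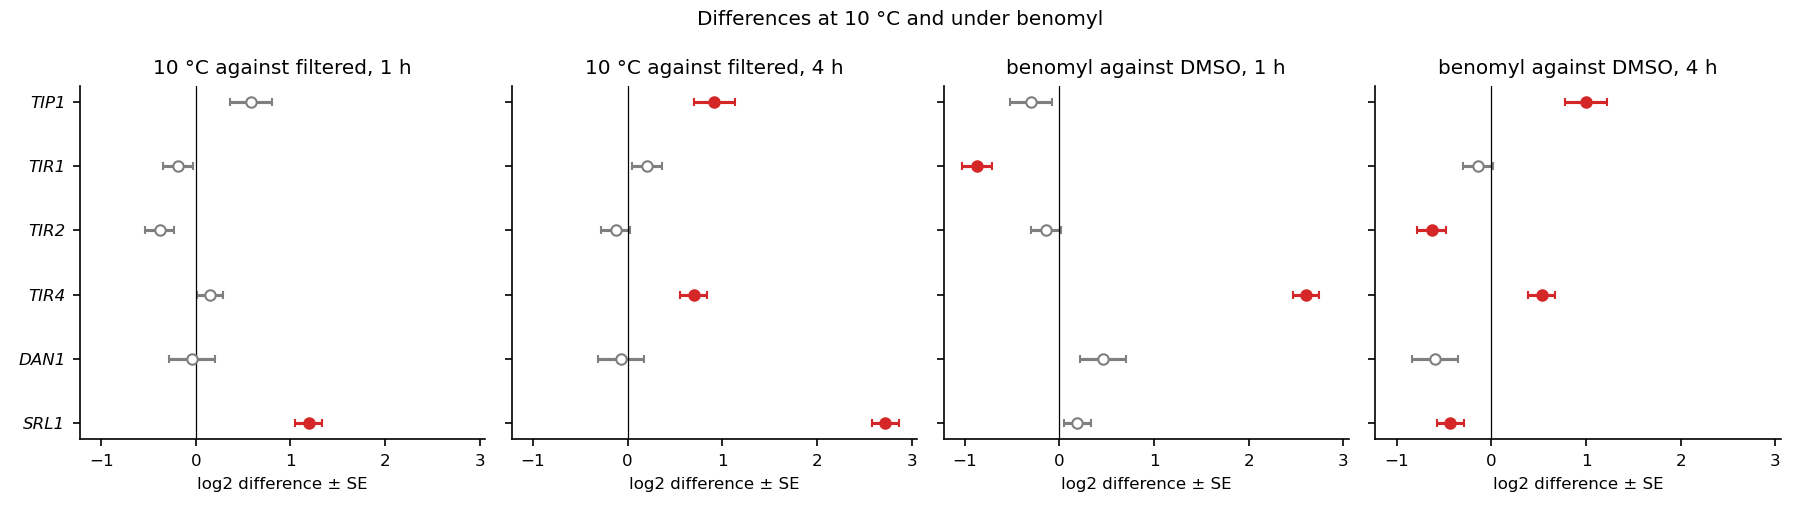
Log2 difference of each transcript (horizontal axis, bars are ± 1 standard error of the model, n = 2 arrays per group) at 10 °C against filtered cells and under benomyl against DMSO. Filled red points passed an adjusted p of 0.05 and open grey points did not. SRL1 stands farthest right in the cold at 4 h (2.72) and TIR4 under benomyl at 1 h (2.60).

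TIR4 gave 11.70 and 12.26 under benomyl at 1 h and 9.43 and 9.32 in DMSO. At 4 h the benomyl arrays gave 9.54 and 9.53 and the DMSO arrays 9.00 and 9.01. The benomyl arrays were above the DMSO arrays at both times, far at 1 h and narrowly at 4 h. The difference was 2.60 ± 0.14 at 1 h (adjusted p = 5.54e-11), 96th from the highest of 7876, and 0.53 ± 0.14 at 4 h (adjusted p = 0.00649). Within the 2 scan days of the first set it was 2.27 and 2.94 at 1 h, then 0.54 and 0.52 at 4 h. The call at 4 h ended with values as deposited (0.32, adjusted p = 0.139) and with median centring (0.37, adjusted p = 0.0834). The change in the benomyl difference from 1 h to 4 h was -2.07 ± 0.20 (adjusted p = 2.23e-07).

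TIR1 was lower under benomyl at 1 h, at 11.13 and 10.79 against 11.86 and 11.80 in DMSO. The arrays did not overlap, the difference was -0.87 ± 0.16 (adjusted p = 0.000161), and within scan days it was -0.73 and -1.01. At 4 h TIR1 was at 10.87 and 10.83 under benomyl and 11.00 and 10.98 in DMSO (-0.14 ± 0.16, adjusted p = 0.55). By then the DMSO cells had themselves come down, by 0.84 ± 0.16 (adjusted p = 0.000305). The benomyl difference of TIR1 changed by 0.73 ± 0.22 between the times (adjusted p = 0.0122), a call that ended with values as deposited (0.44, adjusted p = 0.0825).

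TIP1 was spread widely in the first set. At 1 h it gave 11.37 and 12.08 under benomyl and 12.15 and 11.90 in DMSO, which overlapped (-0.30 ± 0.22, adjusted p = 0.259). Within scan days that difference was -0.78 and 0.18, and without replicate 2 of benomyl it was called (-0.65, adjusted p = 0.0236). At 4 h it gave 13.03 and 12.65 under benomyl and 12.13 and 11.54 in DMSO. These were separate, with a difference of 1.00 ± 0.22 (adjusted p = 0.00159) and within-day values of 0.90 and 1.11. Without replicate 2 of DMSO at 4 h the call ended (0.71, adjusted p = 0.0545).

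TIR2 was at 9.14 and 9.54 under benomyl at 1 h, overlapping the 9.54 and 9.42 in DMSO (-0.14 ± 0.16, adjusted p = 0.453). At 4 h DMSO cells had the highest TIR2 of any group, at 10.08 and 10.32, and benomyl cells gave 9.56 and 9.58. The TIR2 difference was -0.63 ± 0.16 (adjusted p = 0.00405), and it lost its call without replicate 2 of DMSO (-0.51, adjusted p = 0.0695). In DMSO alone TIR2 rose from 1 h to 4 h by 0.72 ± 0.16 (adjusted p = 0.00111). TIR2 and its neighbour TIR4 thus had opposite signs under benomyl at 4 h, each with a call that some alternative ended.

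SRL1 was at 9.08 and 8.67 under benomyl at 1 h against 8.69 and 8.68 in DMSO (0.19 ± 0.14, adjusted p = 0.283), and without replicate 2 of benomyl it was called higher (0.39, adjusted p = 0.0374). At 4 h it was at 8.24 and 8.07, the lowest of the 13 groups for the brightest probe set, against 8.56 and 8.62 (-0.43 ± 0.14, adjusted p = 0.026). The lower level at 4 h was called in the g probe set too (-0.42 ± 0.14) and not in the i probe set (-0.39 ± 0.34, adjusted p = 0.423). For the brightest probe set it lost its call without either DMSO array or without replicate 2 of benomyl (adjusted p from 0.0687 to 0.18).

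DAN1 gave 5.38 and 6.26 under benomyl at 1 h and 5.32 and 5.40 in DMSO. The upper value came from 1 array of a pair that agreed poorly over all probe sets. The difference of 0.46 ± 0.24 was not called (adjusted p = 0.12), and it was 0.90 (adjusted p = 0.00366) without replicate 1 of benomyl and 0.02 without replicate 2. At 4 h DAN1 gave 5.12 and 5.16 under benomyl and 5.73 and 5.75 in DMSO (-0.60 ± 0.24, adjusted p = 0.067).

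In all, 2 of the 6 were called under benomyl at 1 h (52.3% of all probe sets were) and 4 at 4 h (32.6% of all), 2 of them higher and 2 lower (16.6% and 15.9% of all). The benomyl difference changed between the times for 5 of the 6, all except TIR2, where 45.7% of all probe sets were called. The median difference of the 6 was 0.02 at 1 h and -0.29 at 4 h, beside 0.01 and 0.08 over all probe sets. Arrays did not overlap for 2 of the 6 at 1 h (71.2% of all) and 6 of the 6 at 4 h (78.0% of all). DMSO itself, against filtered cells at 1 h, gave 0 calls among the 6 with limma, where 1 had an unadjusted p under 0.05 and 0.571% of all probe sets were called.

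The cold and benomyl differences were compared directly as contrasts of contrasts, which share no array. At 1 h 4 of the 6 differed (42.2% of all probe sets did). The cold difference was higher than the benomyl difference for SRL1 (1.00 ± 0.20, adjusted p = 0.000633), TIP1 (0.88 ± 0.31, adjusted p = 0.0281) and TIR1 (0.68 ± 0.22, adjusted p = 0.0202). The TIP1 and TIR1 calls each ended without any 1 of 4 arrays, 1 from each group compared (adjusted p from 0.0613 to 0.132 and from 0.0576 to 0.101). The cold difference was lower for TIR4 (-2.45 ± 0.20, adjusted p = 2.81e-08). At 4 h only SRL1 among the 6 differed, by 3.15 ± 0.20 (adjusted p = 1.39e-08), with 26.8% of all probe sets called. After quantile normalization TIP1 was higher than its control by similar amounts under both treatments at 4 h (0.92 and 1.00). The difference between them was -0.08 ± 0.31 (adjusted p = 0.874), an error that leaves room for a sizeable gap. The likeness depended on that normalization. With values as deposited the cold difference of TIP1 at 4 h was 1.28. Its deposited signals at 4 h were 12.76 and 12.39 under benomyl and 12.07 and 11.64 in DMSO. The treatments were run in separate sets of arrays, with controls that differed in DMSO.

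**Figure D4:**
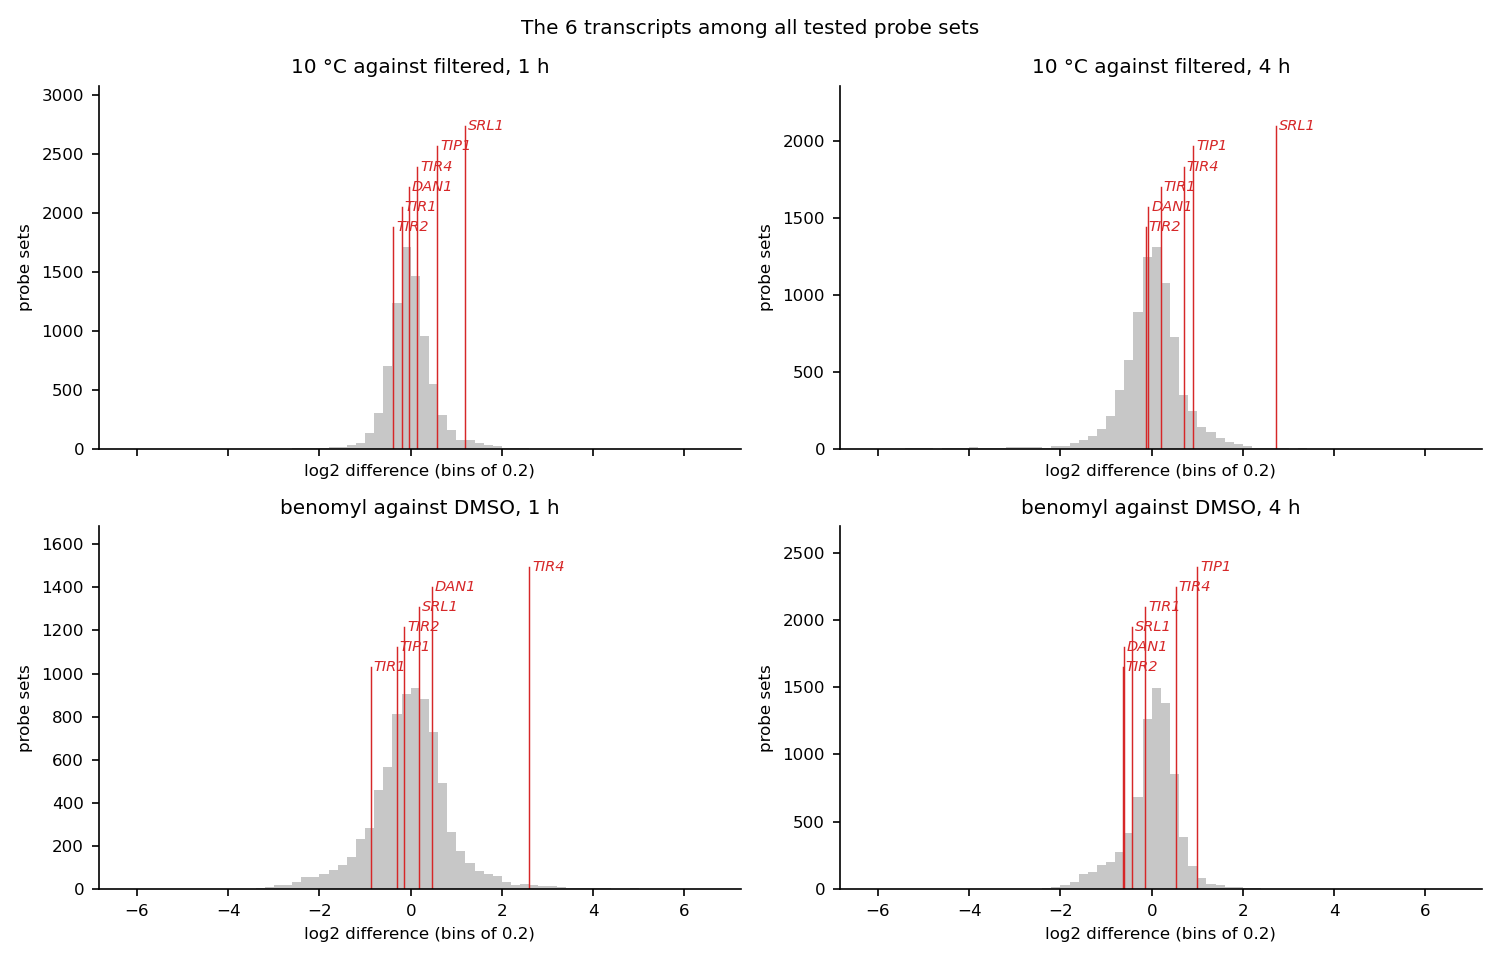
Number of tested probe sets (vertical axis) by log2 difference in bins of 0.2 (horizontal axis), in grey, for the cold and benomyl comparisons, with red lines at the differences of the 6 transcripts. Line heights only keep the labels apart. SRL1 lies in the far right tail in the cold at 4 h (2.72), TIR4 in that under benomyl at 1 h (2.60), and most of the others lie inside the bulk.

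Among the comparisons without drug or cold, TIR4 and TIR1 changed most on the move from YPA into sporulation medium. TIR4 was at 7.10 and 7.13 in YPA and at 9.31 and 9.43 after 4 h of sporulation in the first set, a 4.77-fold rise (2.25 ± 0.14, adjusted p = 3.14e-10). TIR1 went from 9.65 and 9.59 to 11.20 and 11.31, a 3.11-fold rise (1.63 ± 0.16, adjusted p = 8.49e-08). Both transcripts had no overlap between the groups. TIP1 fell from 13.14 and 13.03 to 12.34 and 12.11 (-0.86 ± 0.22, adjusted p = 0.0026). The TIP1 fall was -1.45 with values as deposited and -1.66 with median centring. SRL1 fell from 9.68 and 9.57 to 8.93 and 8.67 (-0.82 ± 0.14, adjusted p = 8.49e-05). So 2 of the 6 rose and 2 fell, in a comparison with 58.1% of all probe sets called, 28.5% higher and 29.5% lower. Within scan days the TIR4 rise was 2.21 and 2.30 and the TIR1 rise 1.55 and 1.72.

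From YPD to YPA, 2 of the 6 were called (33.3% of all were). SRL1 fell from 10.37 and 10.16 to 9.68 and 9.57 (-0.64 ± 0.14, adjusted p = 0.00217). TIR1 rose from 8.91 and 9.25 to 9.65 and 9.59 (0.54 ± 0.16, adjusted p = 0.014), and its call ended without either YPA array or without replicate 1 of YPD. No other group shared a scan day with YPD, so medium and scan day cannot be told apart.

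Filtration in the first set called 1 of the 6 (3.09% of all): TIR1 rose from 11.20 and 11.31 to 12.17 and 12.26, its highest level of any group (0.97 ± 0.16, adjusted p = 0.000792). In the second set the same step moved it from 10.66 and 10.28 to 11.07 and 10.67, which was not called (0.40 ± 0.16, adjusted p = 0.207). In DMSO from 1 h to 4 h, 3 of the 6 were called (43.6% of all): TIR1 and TIR2 as given above, and TIR4, which went from 9.43 and 9.32 to 9.00 and 9.01 (-0.37 ± 0.14, adjusted p = 0.0381). The TIR4 call ended with values as deposited (-0.12), with median centring (-0.22) and without any 1 of the 4 arrays (adjusted p from 0.0743 to 0.177).

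The undrugged controls of the sets did not behave alike for these genes. Over the same interval from 1 h to 4 h, TIR1 fell in DMSO and was not called in the second set (0.29 ± 0.16), and the test of that difference gave 1.14 ± 0.22 (adjusted p = 0.00279). TIR2 rose in DMSO and did not pass in the second set (-0.05 ± 0.16), with a difference of -0.77 ± 0.22 (adjusted p = 0.0259). TIR4 differed by 0.61 ± 0.20 (adjusted p = 0.0455). The TIR4 call ended without any 1 of the 8 arrays (adjusted p from 0.0593 to 0.134), and the TIR2 call without any of 4 (adjusted p from 0.097 to 0.129). Thus 3 of the 6 differed between the courses, with 14.1% of all probe sets called. Already at 1 h after filtration with no DMSO, the second set had the brightest SRL1 probe set higher by 0.75 ± 0.14 (adjusted p = 0.00143), TIR1 lower by 1.35 (-1.35 ± 0.16, adjusted p = 1.29e-05) and TIR4 lower by 0.48 (-0.48 ± 0.14, adjusted p = 0.0198), a call that ended without any 1 of the 4 arrays (adjusted p from 0.0611 to 0.103). These were 3 of the 6, with 22.5% of all called. For SRL1 the g probe set was also higher (0.52 ± 0.14, adjusted p = 0.0159), and the i probe set had the opposite sign and was not called (-0.57 ± 0.34, adjusted p = 0.241). Culture, array run and set cannot be told apart in that comparison.

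Ordered by group mean, the brightest SRL1 probe set was highest at 10 °C for 4 h (11.48) and then for 1 h (10.59), followed by YPD (10.26), YPA (9.62) and the second-set groups at 4 h of sporulation (9.60) and 1 h after filtration (9.40). Each of the first 3 was clear of the next, and YPA overlapped the sporulating cells of the second set. Every sporulating group of the first set lay at 8.87 or lower. The other two SRL1 probe sets ordered the groups differently. The g probe set had cold at 4 h first (10.54), then YPD (9.60) and cold at 1 h (9.47). The i probe set had YPD first (7.68, arrays at 7.83 and 7.52), overlapping cold at 4 h (7.51, arrays at 7.64 and 7.37), and YPA (6.66) overlapped cold at 1 h (6.60). Whether SRL1 in the cold at 4 h exceeded its level in YPD therefore depended on the probe set. The 13 means of the brightest spanned 3.32, a wider span than 93.1% of probe sets had.

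TIR4 spanned 4.86, wider than 98.3% of probe sets, and 9 of its 12 neighbouring pairs of groups in the order did not overlap. Benomyl at 1 h (11.98) came first and cold at 4 h second (10.08), both clear of the groups beside them. The filtered first-set cells at 1 h (9.62) and benomyl at 4 h (9.53) came next. YPD (7.46) and YPA (7.11) lay far below every sporulating group, of which the lowest was the second set at 4 h of sporulation (8.85).

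TIR1 spanned 3.14. Its top was the filtered and DMSO cells of the first set at 1 h (12.22 and 11.83), cold at 4 h came next (11.36), and YPA (9.62) and YPD (9.08) were last. The 5 groups from DMSO at 4 h (10.99) to cold at 1 h (10.68) each overlapped a neighbour. TIP1 spanned 1.75, from 13.48 in the cold at 4 h to 11.73 under benomyl at 1 h, and 9 of its 12 neighbouring pairs overlapped. TIP1 at 10 °C for 1 h (13.19) overlapped YPA (13.08).

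TIR2 varied least among the bright transcripts. It spanned 1.00, wider than 23.4% of probe sets, and apart from DMSO at 4 h (10.20) its group means ran from 9.20 to 9.58 with every neighbouring pair overlapping. DAN1 spanned 0.69, wider than 6.14% of probe sets, and all 12 of its neighbouring pairs overlapped. Across the 13 group means the strongest positive correlations among the 6 were SRL1 with TIP1 (r = 0.75), TIR4 with TIR1 (0.63) and TIR4 with DAN1 (0.55). These points share arrays and normalization, and the correlations are descriptions only.

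Other anaerobic wall genes were called in the cold at 4 h about as often as all probe sets. Of 12 other mannoprotein and seripauperin (PAU) genes measured by a probe set of 1 gene, 0 were called at 1 h of cold (20.1% of all probe sets were), and 1 was higher and 4 lower at 4 h (19.4% and 16.8% of all). TIR3, a mannoprotein gene of the same family, was lower at 4 h (-0.70 ± 0.16, adjusted p = 0.00256), and PAU7 was higher (0.59 ± 0.14, adjusted p = 0.00269). Under benomyl at 1 h 9 of these 12 rose and 0 fell, beside 25.6% of all probe sets called higher, with a median of 1.11 against 0.01 for all probe sets. DAN4, the neighbour of DAN1, rose by 1.56 ± 0.21 (adjusted p = 6.57e-06), whereas TIR3 was not called (-0.06 ± 0.16). DAN4 was at 9.12 and 10.11 under benomyl and at 8.07 and 8.03 in DMSO. That benomyl pair agreed poorly over all probe sets (r = 0.942), which bears on every rise counted at 1 h. At 4 h of benomyl 5 of the 12 were lower and 0 higher (15.9% and 16.6% of all), among them DAN4 (-0.70 ± 0.21, adjusted p = 0.0159). The PAU7 probe set, like others of the PAU genes, has an f before "at", a mark of probes shared within a gene family, so their values may not be independent of each other.

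The aerobic wall proteins moved both ways in the cold. Of 14 tested, 4 were higher and 2 lower at 4 h, against 19.4% and 16.8% of all probe sets. CWP2, an abundant aerobic mannoprotein, rose by 1.37 ± 0.19 (adjusted p = 1.84e-05) and CWP1 fell by 3.14 (-3.14 ± 0.41, adjusted p = 8.22e-06). SPI1, a stress-induced wall protein, rose at both times (2.32 ± 0.20 and 1.77 ± 0.20), and CCW12, which stabilises the wall, rose at 4 h by 0.33 ± 0.09 (adjusted p = 0.00572). CCW12 was near the top of the scale, where quantile normalization gives different arrays the same value. At 4 h it was at 13.98 on both control arrays and at 14.26 and 14.37 in the cold, so its small error may understate the spread.

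Among 18 genes known to be induced by cold in growing yeast, 6 were higher and 0 lower at 1 h at 10 °C (11.7% of all probe sets were higher). At 4 h 6 were higher and 5 lower (19.4% and 16.8% of all). NSR1, a nucleolar protein gene, rose by 2.50 ± 0.24 at 1 h and 2.81 ± 0.24 at 4 h, while OLE1, the fatty acid desaturase (also on the list of oxygen-regulated genes), was not called in the cold (0.22 ± 0.14 and 0.34 ± 0.14). Under benomyl at 1 h 10 of the 18 were higher and 2 lower, where 25.6% of all probe sets were higher and 26.8% lower. OLE1 was among the lower ones (-3.11 ± 0.14, adjusted p = 5.59e-12).

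Of 11 regulators of anaerobic and wall genes, 3 were higher and 0 lower at 1 h of cold, with 11.7% of all probe sets higher. Their median difference at 1 h was nevertheless -0.27, beside -0.03 over all probe sets. At 4 h of cold 1 was higher and 3 lower, with 36.1% of all called. ROX1, the heme-dependent repressor, rose by 1.16 ± 0.19 at 1 h of cold (adjusted p = 0.000317) and was not called at 4 h (-0.42 ± 0.19, adjusted p = 0.1). Under benomyl at 1 h ROX1 was lower (-0.74 ± 0.19, adjusted p = 0.00372). UPC2 and MOT3 were called neither in the cold nor under benomyl at 1 h or 4 h, with UPC2 between -0.30 and 0.22 and MOT3 between -0.20 and 0.33. MOT3 was dim, with group means from 4.21 in YPA to 5.60 at 4 h of sporulation in the first set. A small change in it would be hard to see. Of 15 oxygen-regulated genes, 1 was higher and 6 lower at 4 h of cold (19.4% and 16.8% of all), including the sterol importer PDR11 (-1.14 ± 0.16). Of 21 enzymes that build the GPI anchor and mannose chains, 9 were lower and 1 higher at 4 h of cold, with 16.8% of all probe sets lower and 19.4% higher. GAA1, of the complex that attaches the anchor, was lower (-0.90 ± 0.13, adjusted p = 3.28e-05), and MNN1, which adds terminal mannose, was higher (1.53 ± 0.19, adjusted p = 4.68e-06).

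The genes whose 13 group means ran most like each mannoprotein's were found by Pearson correlation over 5458 other genes, the 6 left out. For SRL1 they were HMO1 (r = 0.957), which binds ribosomal DNA, CIA1 (0.946) and HTC1 (0.923). For TIR4 they were RAD54 (0.973), a recombination gene, ZWF1 (0.961), which makes NADPH, and RPT2 (0.957), of the proteasome. For TIP1 they were SNR8 (0.902), CDS1 (0.899) and HPT1 (0.898). TIR1 ran most like MIH1 (0.915), a cell cycle phosphatase, and TIR2 most like YOL014W (0.941). DAN1, whose own range was small, reached 0.826 with NAB3 and 0.816 with PAU19. Over the 12 groups other than YPD, Spearman's rho with TIR4 was 0.678 for RAD54, 0.53 for ZWF1 and 0.888 for RPT2, and with TIR2 it was 0.664 for YOL014W. For the others named it ran from 0.797 (DAN1 with NAB3 and with PAU19) to 0.930 (TIP1 with SNR8). All these correlations are over group means of the same arrays and carry no test.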

How the data were processed

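Total RNA was hybridised to 26 Affymetrix YG_S98 arrays, whose titles give 13 groups of 2. The authors deposited log2 signals (the log2 base is inferred from the range of values, 2.09 to 15.1) whose making is not given in the sources used here. Instrument files of 16 arrays, per the file headers, hold scanner settings of another kind ("other" unit) and gave only scan days. Deposited values were quantile normalized between arrays. Probe sets were kept if their highest group mean passed the 25th percentile (log2 5.44), which left 7876. All comparisons are contrasts in 1 limma model (limma 3.58.1, R 4.3.3) of 13 group means with an intensity trend, 13 residual degrees of freedom and Benjamini-Hochberg adjustment over all 7876, called at an adjusted p under 0.05. The number of arrays limits precision. Probe sets were named through the supplied annotation, updated with a RefSeq gene table (assembly R64, used for names and neighbours). SRL1 is given by its brightest probe set.

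The 6 members, the gene lists and the alternatives were chosen with earlier results of these data known. The 6 genes are named everywhere. From each list up to 4 genes with the smallest adjusted p were nameable, and TIR3, DAN4, UPC2, ROX1, MOT3, OLE1, NSR1 and CCW12 whatever their value. Replicate number followed scan day (day 1 or 2) for all first-set groups except YPD, both of whose arrays were scanned on day 3. Correlations of deviations by replicate number took both signs (first set: -0.155 to 0.309, second: -0.289 to 0.391). They exceeded 0.1 for 6 of 28 pairs and 3 of 10 pairs respectively. These values do not show that arrays sharing a number were independent. Replicate number was left out of the main model and tried only as a block. The fit was also run on data simulated for the cold at 1 h, with the same spread in every group. The real filtered control of that comparison agreed less well than most pairs (r = 0.963), so that run does not check its calls. Alternatives were values as deposited, median centring, other filters, no trend, array weights, a replicate or scan-day block, only the groups compared, another control and each array left out. The comparison of the 2 undrugged courses was added after the data were seen.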

Additional observations from a re-analysis of the deposited data

Results flagged for a closer look

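The cold difference of SRL1 was larger at 4 h than at 1 h, and the test of that change gave 1.53 ± 0.20 (adjusted p = 4.62e-05). The benomyl difference changed between 1 h and 4 h for 5 of the 6 genes, in a test with 45.7% of all probe sets called. It changed by -2.07 ± 0.20 for TIR4 (adjusted p = 2.23e-07) and by -1.06 ± 0.34 for DAN1 (adjusted p = 0.0171), the latter resting on 1 high array at 1 h (-0.62, adjusted p = 0.116, without replicate 2 of benomyl at 1 h). SRL1 changed by -0.62 ± 0.20 (adjusted p = 0.0176), TIP1 by 1.30 ± 0.31 (adjusted p = 0.00213) and TIR1 by 0.73 ± 0.22 (adjusted p = 0.0122). The SRL1 call ended without replicate 2 of DMSO at 4 h, replicate 2 of benomyl at 4 h or replicate 1 of benomyl at 1 h (adjusted p from 0.0547 to 0.0737), and the TIR1 call without replicate 2 of benomyl at 1 h (adjusted p = 0.0527).

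The undrugged course from 1 h to 4 h differed between the second set and the DMSO arrays of the first for TIR1 (1.14 ± 0.22, adjusted p = 0.00279), TIR2 (-0.77 ± 0.22, adjusted p = 0.0259) and TIR4 (0.61 ± 0.20, adjusted p = 0.0455). The TIR4 value was not called in any fit with 1 array of these groups left out, nor with no filter (adjusted p = 0.0519), and the TIR2 value was not called in 4 of those 8 fits.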

How the results depend on the processing

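Of 45 called differences of the 6 genes, 28 kept their call under every alternative run for them, 17 lost it in at least 1, and 0 turned direction. Of 69 not called, 20 were called in at least 1. The counts of genes called moved by over 1.5 times as follows. In the cold at 1 h, 1 became 2 with values as deposited, median centring or only the groups compared, and 3 with the DMSO control. In the cold at 4 h, 3 became 5 with the DMSO control. The course of the second set went from 1 to 0 with values as deposited, array weights or only the groups compared. The cold against benomyl count went at 4 h from 1 to 3 (as deposited, median centring, array weights) or 2 (only the groups compared), and at 1 h from 4 to 2 with array weights or only the groups compared. The change of the benomyl difference went from 5 to 3 with array weights or only the groups compared, and that of the cold difference from 1 to 2 with only the groups compared. With each array left out in turn, counts ran from 1 to 4 for benomyl at 4 h, 2 to 4 for benomyl at 1 h, 3 to 5 for its change, 2 to 4 for cold against benomyl at 1 h, 1 to 2 for the cold at 1 h, for YPA against YPD and for the difference of the courses, and 0 to 1 for the second-set course and filtration in that set. A lone array was then assumed to vary like the other groups. With replicate number as a block, the number of the 6 genes called was that of the model without it in all 19 comparisons, for example 3 in the cold at 4 h, and no call of a single probe set of the 6 ended or was gained. Other causes were not tested. Signals near the top of the scale (TIP1) and near its floor (DAN1) limit what these arrays can resolve.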
